A study of Mus musculus with 2 samples.

Results

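The clustered protocadherins are a family of neuronal adhesion genes that lie in 3 neighbouring clusters, alpha, beta and gamma, on mouse chromosome 18. They were taken here as the protein-coding genes of the GENCODE M21 annotation (mm10) on that chromosome whose symbol starts with Pcdha, Pcdhb or Pcdhg. The rule gave 57 of 21938 protein-coding genes, of which 14 are alpha, 22 beta and 21 gamma. Together they reach from position 36930184, the 5′ end of Pcdha1, to position 37841873. All 57 were kept, and 2 alpha entries carry the same symbol, Pcdha11. Pcdhgb8 is annotated as a polymorphic pseudogene, so it was not counted, and its values are given beside those of its neighbours. Peaks and footprints were described across the clusters and 100 kb either side.

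Protocadherins are cell surface proteins of the cadherin superfamily, best known from the brain, where the combination a neuron makes gives its branches an identity that lets them tell self from non-self. Each gene of the alpha and gamma clusters has its own first exon, called variable, with its own promoter, and is spliced to a few constant exons at the end of the cluster that encode a shared cytoplasmic tail, while beta genes have no constant exons. Neurons choose among most of these promoters at random, and the C-type genes at the ends of the alpha and gamma clusters are used more broadly. The insulator protein CTCF and the ring-shaped cohesin complex bind many of the promoters and fold the clusters, and DNA methylation is known to oppose their use.

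Accessible chromatin was mapped by DNase I-seq, in which the enzyme cuts DNA that is not covered by nucleosomes, in whole thymus of male B6CASTF1/J mice aged 2 months. These mice are a first-generation cross of C57BL/6J with CAST/EiJ, and the values are not split by parental copy. There was 1 group of 2 replicates, without treatment or control, which the labels describe as different males under a shared donor identifier. They were taken as separate animals, and the SD over them may be partly technical. The submitters' strict peak list held 63832 entries in replicate 1 and 67929 in replicate 2, their looser list 91754 and 100264, and their footprint list 291716 and 295617. A peak's score is the submitters' signal value, and all scores were whole multiples of 1 step, 0.00741 in replicate 1 and 0.00608 in replicate 2. No file states how many cuts were sequenced, so a missing peak says that none passed the submitters' threshold at this depth, not that the DNA was closed. In whole tissue, a site open in fewer cells and less cutting per cell cannot be told apart. As a check of the tissue, all 12 thymocyte markers had a promoter peak in both replicates, with a summed score of 87.5 and 58.3. Of 12 neuron markers 5 had one (summed scores 10.6 and 9.39), of 8 astrocyte and oligodendrocyte markers 4 (8.84 and 8.85), of 8 thymic epithelium markers 3 (19.3 and 15.2) and of 8 fibroblast and endothelium markers 4 (8.54 and 8.72). Most of the neuron sum came from Syp (7.22 and 5.02). Most of the astrocyte and oligodendrocyte sum came from Mbp (6.72 and 6.58). Foxn1 and Psmb11, which define thymic epithelium, had no strict peak at the 5′ end, while Ccl25 and Aire of the same list scored 12.2 and 10.1, and 5.23 and 3.99. With peaks at any annotated start, 7 neuron markers, 4 of thymic epithelium, 4 of astrocytes and oligodendrocytes and 6 of fibroblasts and endothelium had a peak in both replicates. The part of the other cell types in the protocadherin peaks was not tested.

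A variable promoter was called accessible when a strict peak of each replicate lay within 1000 bp of the gene's 5′ end. This held for 8 of 57 protocadherin genes (14.0%), against 54.3% of all protein-coding genes. The 8 were not spread evenly: 0 of 14 alpha, 1 of 22 beta and 7 of 21 gamma promoters were accessible. A further 3 genes had a strict peak in replicate 2 alone, none had one in replicate 1 alone, and 46 had none. With the looser list, 12 genes had a peak in both replicates (2 alpha, 2 beta and 8 gamma), against 57.9% of all protein-coding genes, and 41 genes had no peak in either list. The deposited false discovery rate (FDR), which gives for each stretch of DNA the rate of false calls at that strength and is listed where it is under 0.05, gave the same picture. A listed stretch in both replicates lay within 1000 bp of 13 of 57 genes (3 alpha, 2 beta and 8 gamma), against 59% of all protein-coding genes, and 39 protocadherin genes had no such stretch in either replicate.

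**Figure D1:**
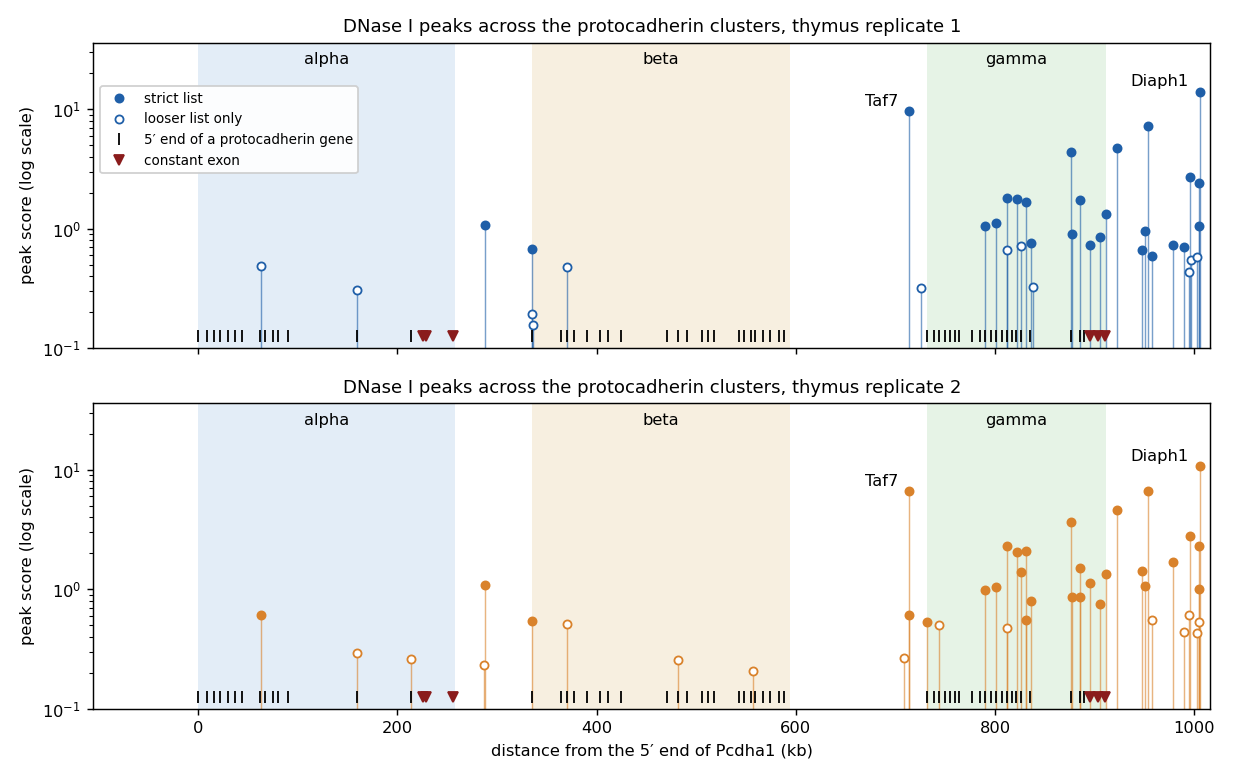
Score of every peak (vertical axis, logarithmic) by distance from the 5′ end of Pcdha1 (horizontal axis, kb) in replicate 1 (top) and replicate 2 (bottom). Filled circles are strict peaks and open circles peaks of the looser list alone; vertical ticks mark the 5′ ends of the 57 genes and triangles the 6 constant exons. Peaks crowd in the second part of the gamma cluster and beyond it, while the alpha and beta clusters are nearly empty in both replicates.

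The C-type gene Pcdhgc3 had the highest promoter score of the family. It scored 4.39 in replicate 1 and 3.64 in replicate 2 (4.01 ± 0.527, SD, n = 2), in a peak at 37806241 to 37806480 that spans the 5′ end. A second, weaker peak at 37806887 to 37807160, 659.5 bp downstream of the 5′ end, scored 0.896 and 0.857. The lower value of the peak over the 5′ end, 3.64, lay above the highest score of any other protocadherin promoter, 2.33. Even so, 29.5% of the 11923 accessible protein-coding promoters had a lower mean score and the remainder a higher or equal one.

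The other gamma C-type genes went separate ways. Pcdhgc4 scored 1.74 and 1.50 (1.62 ± 0.169, SD, n = 2) in a peak at 37815261 to 37815520, whose centre lay 311.5 bp and 321.5 bp downstream of the 5′ end in the replicates. Replicate 2 had a further strict peak of 0.857 over the 5′ end itself, at 37815024 to 37815224, where the FDR reached 3.55e-05 in replicate 1 without a strict peak. The looser list of replicate 2 held no peak there, so that list does not contain every strict peak. Pcdhgc5, the last gene of the family, had no peak in either list and no stretch under the FDR limit. In the alpha cluster, the C-type genes were absent from the strict lists. Pcdhac1 had a looser peak in both replicates, with scores of 0.304 and 0.292, and Pcdhac2 had one in replicate 2 alone, at 0.261. Pcdhac2 stood at this low level although 55 CpG dinucleotides lay within 500 bp of its 5′ end, the most of any alpha gene.

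B-type genes made up 4 of the 7 accessible promoters of the gamma cluster. Pcdhgb6 scored 1.80 and 2.33 (2.06 ± 0.373, SD, n = 2) and Pcdhgb7 scored 1.77 and 2.04 (1.91 ± 0.192, SD, n = 2). Pcdhgb5 scored 1.11 and 1.05 (1.08 ± 0.0465, SD, n = 2), and Pcdhgb4 scored 1.04 and 0.991 (1.02 ± 0.0380, SD, n = 2). In each replicate the scores of Pcdhgb6 and Pcdhgb7 lay above those of Pcdhgb4 and Pcdhgb5. The scores of Pcdhgb6 and Pcdhgb7 overlapped. Those of Pcdhgb5 lay above those of Pcdhgb4 in each replicate, but its lower score, 1.045, and the higher score of Pcdhgb4, 1.044, were nearly equal. The pseudogene Pcdhgb8 scored 1.67 and 2.09, and so overlapped Pcdhgb6 and Pcdhgb7. The remaining B-type genes, Pcdhgb1 and Pcdhgb2, had no peak in either list, so 4 of 6 were accessible. Among all protein-coding genes 54.3% were, and among those with 30 to 39 CpG near the 5′ end 62.4%. The B-type genes had a median of 38 CpG, so their count is near the share of such genes.

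The A-type genes of the gamma cluster alternate with the B-type genes and were mostly without peaks. From Pcdhgb4 to Pcdhgb7, 7 genes follow each other over 31.2 kb. All 4 B-type genes among them were accessible in both replicates, and the 3 A-type genes between them, Pcdhga8, Pcdhga9 and Pcdhga10, had no peak in either list and no stretch under the FDR limit in either replicate. The A-type genes of this row had 29 to 41 CpG dinucleotides near the 5′ end and the B-type genes 37 to 40. The share of 31-base words in the promoter window that occur once in the genome, which sets how well reads can be placed, was 88.1 to 91.9% for the A-type and 80.8 to 89.5% for the B-type genes. In this row, whose ends were set after the scores had been seen, peaks and missing peaks alternated. The alternation did not continue beyond it. The next A-type gene, Pcdhga11, had a strict peak of 1.39 in replicate 2 and a looser one of 0.711 in replicate 1. Within the row, the ranges of CpG number and of uniqueness over the whole window overlapped. Within the peaks themselves the unique share was 100% at Pcdhgb4, 96% at Pcdhgb5, 62.3% at Pcdhgb6 and 80.3% at Pcdhgb7. Whether CpG number or read placement bears on the alternation was not tested.

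Of the 12 A-type genes, Pcdhga12 alone had a strict peak in both replicates. It scored 0.756 and 0.796 (0.776 ± 0.0287, SD, n = 2), in a peak centred 334 bp and 340.5 bp downstream of the annotated 5′ end. Pcdhga11 had a strict peak in replicate 2, at 1.39, and a looser peak in replicate 1, at 0.711, a log2 difference of 0.96, which exceeds that at any of the 8 accessible promoters. Pcdhga1, the first gene of the gamma cluster, had a strict peak of 0.529 in replicate 2 and nothing in replicate 1. Pcdhga3 had a looser peak of 0.498 in replicate 2 alone. None of the 9 gamma genes before Pcdhgb4 had a strict peak in both replicates, and all of the accessible gamma promoters lay from Pcdhgb4 onward.

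**Figure D2:**
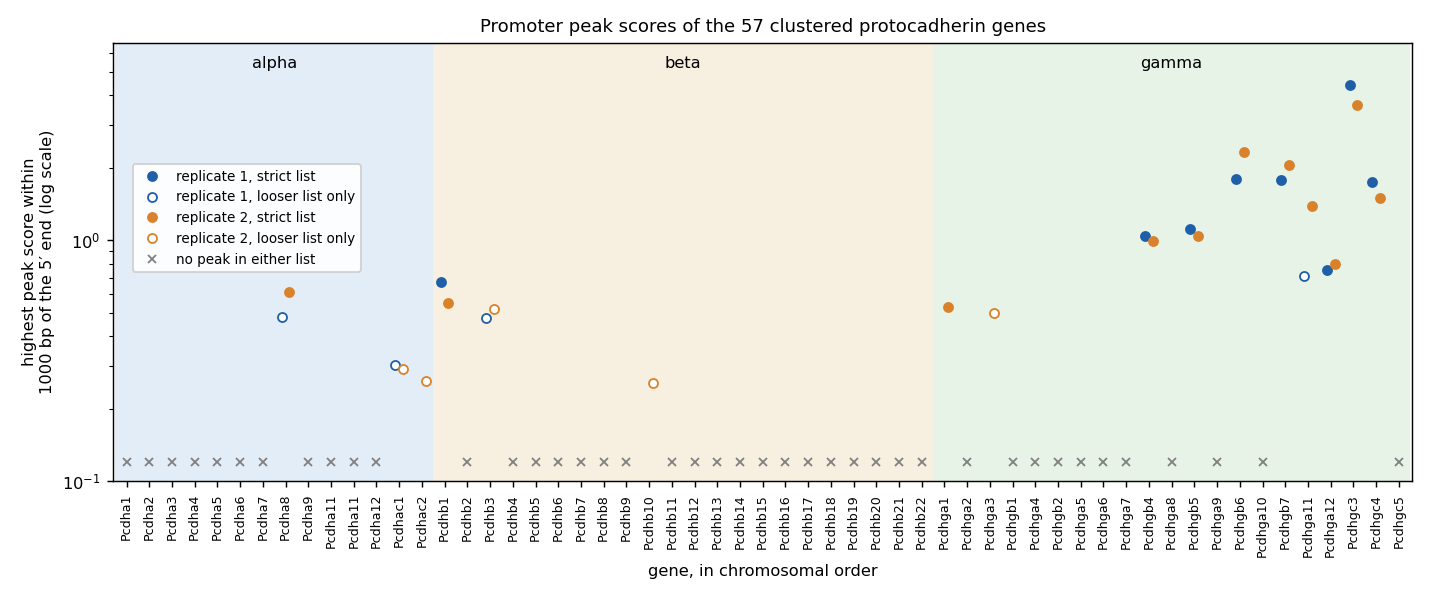
Highest peak score within 1000 bp of the 5′ end (vertical axis, logarithmic) for the 57 genes in chromosomal order, by replicate. Filled circles are strict peaks, open circles peaks of the looser list alone and crosses genes without a peak in either list. The B-type genes Pcdhgb4 to Pcdhgb7 alternate with crosses, and Pcdhgc3 stands highest at 4.39 and 3.64.

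The beta cluster had 1 accessible promoter, that of its first gene. Pcdhb1 scored 0.674 and 0.547 (0.611 ± 0.0899, SD, n = 2) in a peak at 37264921 to 37265280, the lowest of the 8, and 2.46% of all accessible promoters scored lower. Pcdhb3 had a looser peak in both replicates, with scores of 0.474 and 0.517, centred 23 bp upstream of the 5′ end. Pcdhb10 had a looser peak of 0.255 in replicate 2. The other 19 beta genes, from Pcdhb2 to the last one, Pcdhb22, had no peak in either list. From the end of the Pcdhb1 peak, 378 kb followed without a strict peak in either replicate, up to position 37643290. That stretch holds every beta promoter but the first.

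In the alpha cluster no promoter was accessible by the strict lists of both replicates. Pcdha1 was among 11 alpha genes without a peak in either list. The exception among the alternately chosen genes was Pcdha8, with a strict peak of 0.608 in replicate 2 and a looser peak of 0.481 in replicate 1, at 36992861 to 36992952. Its centre lay 535.5 bp downstream of the 5′ end, inside the first exon rather than at the promoter. Replicate 2 was higher, and the peak was in its strict list alone.

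**Figure D3:**
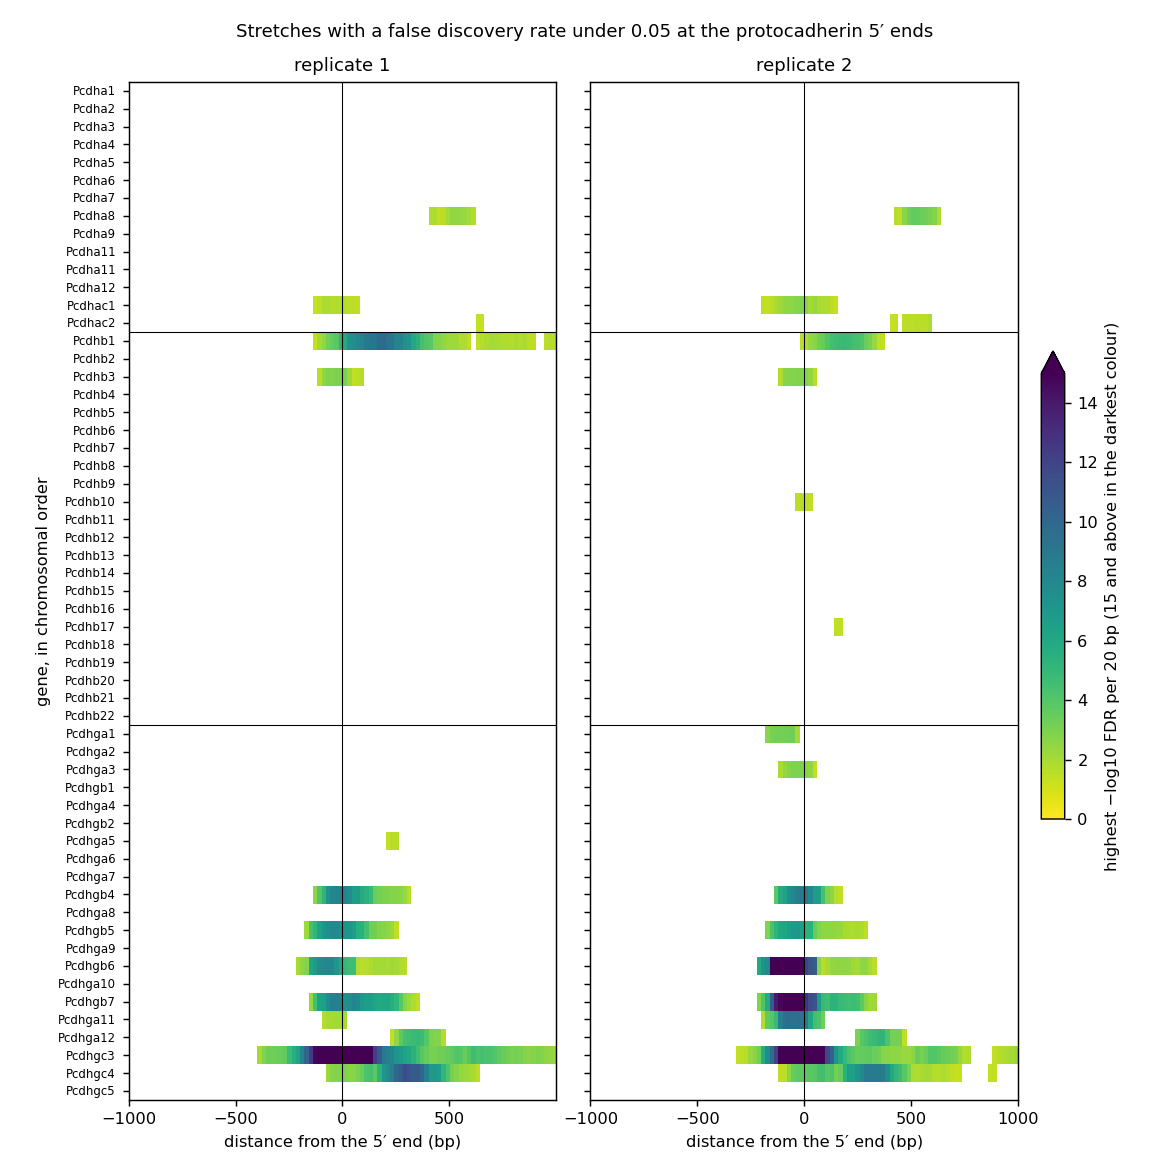
Highest −log10 FDR per 20 bp (colour) by distance from the 5′ end (horizontal axis, bp) for the 57 genes in chromosomal order, replicate 1 left and replicate 2 right; blank stretches are not listed under 0.05. Signal at Pcdhgb4 to Pcdhgb7 and Pcdhgc3 is centred on the 5′ end, while the strongest signal of Pcdha8, Pcdhb1, Pcdhga12 and Pcdhgc4 lies downstream of it.

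Across the 8 accessible promoters the median score was 1.43 in replicate 1 and 1.27 in replicate 2, against 7.79 and 5.93 over the 11923 accessible protein-coding promoters. The ranges were 0.674 to 4.39 and 0.547 to 3.64. Replicate 1 was higher at 5 of the genes and replicate 2 at 3. The log2 difference, replicate 2 minus replicate 1, had a median of -0.08 and ran from -0.30 to 0.37, while it had a median of -0.22 and an SD of 0.46 over all 51709 shared regions of the genome. The SD at the 8 promoters was 0.24. The order of Pcdhgc3 first and Pcdhb1 last held in both replicates.

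The promoters were then set beside their CpG content, since CpG-rich promoters are accessible in most tissues. The median number of CpG in the 500 bp on each side of the 5′ end was 35.5 for alpha, 15 for beta and 33 for gamma genes, and 41 for all protein-coding genes. Accessible protocadherin promoters had a median of 39.5 and those without a strict peak 26.5, with ranges that overlapped widely (12 to 67 and 6 to 55). Of all protein-coding genes within the family's range of 6 to 67, 49.4% were accessible, again against 14.0% of the family. Among genes with 30 to 39 CpG, 3 of 21 protocadherin genes and 62.4% of all genes were accessible. With 40 to 49 CpG the values were 3 of 6 and 77.1%, and with 10 to 19 they were 1 of 18 and 17.3%. In each class with more than 2 members, the members' share was below that of all genes.

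**Figure D4:**
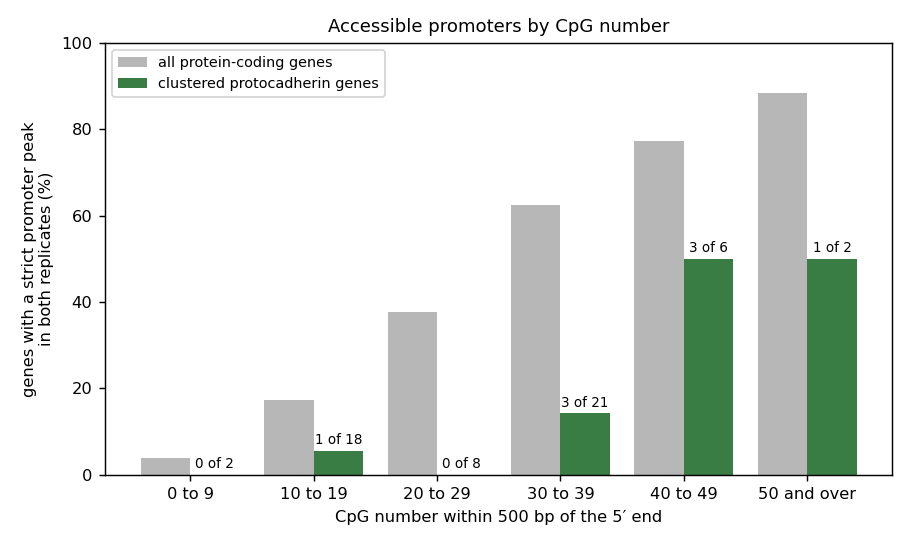
Share of genes with a strict promoter peak in both replicates (vertical axis, percent) by the number of CpG around the 5′ end (horizontal axis, counted in 500 bp on each side), for all protein-coding genes (grey) and the clustered protocadherin genes (green, with their number). The grey bars rise from 3.84% to 88.3%, and the green bars lie below them in every class; the lowest and the highest class hold 2 protocadherin genes each.

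Members resemble each other in sequence, and reads that fit several places can be lost or misplaced. The promoter windows had a median of 93.4% unique words (73.2 to 100%), against 98.4% in 1097 protein-coding genes taken at even steps. The median was 88.7% for alpha, 99.5% for beta and 97.5% for gamma genes. The beta windows, with 1 accessible promoter, had the highest median here and the lowest median CpG number, 15. Genes with a strict peak in both replicates and genes without any had medians of 93.2% and 92.9%. Within the gamma cluster, the 7 accessible promoters had a median of 89.5% and the other 14 of 98.2%. At single sites the share was lower: 62.3% within the Pcdhgb6 peak, 80.3% within the Pcdhgb7 peak and 53.2% within the Pcdha8 peak. Signal at these sites may belong in part to a related gene and is uncertain. Whether read placement bears on the missing peaks of the family was not tested.

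The 8 peaks differed in position. At Pcdhgb4, Pcdhgb5, Pcdhgb6, Pcdhgb7 and Pcdhgc3, the centre of the highest peak lay within 100 bp of the 5′ end in both replicates. At Pcdhb1, Pcdhga12 and Pcdhgc4 it lay further downstream in both, by 162.5 and 186.5 bp at Pcdhb1. The limit of 100 bp was chosen after these positions had been seen. The positions were then set beside the letters CGCT, the core of a conserved element known upstream of most variable exons, searched on the sense strand within 150 bp before the 5′ end. This search was added after the peaks had been seen. CGCT was found at 47 of 57 protocadherin genes (11 alpha, 18 beta and 18 gamma), against 34.4% of all protein-coding genes. The nearest match began at a median of 56 bp before the 5′ end. All 5 genes whose highest peak was centred held it, and none of the 3 with a highest peak further downstream did, among them Pcdhgc4 with its weaker peak over the 5′ end in replicate 2. The searched stretch was placed by the annotated 5′ end and not by the peak. At these 3 genes it did not cover the DNA just before the peak centre, so it cannot say whether CGCT lies there. CGCT was also present at 39 of 46 genes without a strict peak.

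Footprints, short stretches within accessible DNA that are protected from cutting, were present in both replicates within 1000 bp of 11 of 57 protocadherin 5′ ends (1 alpha, 2 beta and 8 gamma), against 54.1% of all protein-coding genes. There were 23 of them, 9 to 49 bp wide with a median of 19 bp. At the 4 accessible B-type genes a shared footprint covered the CGCT match. It spanned the bases from 63 to 38 bp before the 5′ end at Pcdhgb4, from 103 to 76 at Pcdhgb5, from 110 to 62 at Pcdhgb6 and from 94 to 48 at Pcdhgb7. The same was seen at Pcdhga11 (71 to 27 bp) and, in its looser peak, at Pcdhb3 (41 to 15 bp). At Pcdhgc3 the CGCT matches lay in the peak but in no shared footprint. So of 5 genes with CGCT in a shared strict peak, 4 had it in a shared footprint, against 51.5% of 4696 such genes in the genome.

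The footprints over CGCT were of unequal width. They were 49 bp wide at Pcdhgb6, 47 bp at Pcdhgb7 and 45 bp at Pcdhga11, and 26 to 28 bp wide at Pcdhgb4, Pcdhgb5 and Pcdhb3. The pseudogene Pcdhgb8 had one of 49 bp that covered the first of its 2 matches and touched the second. Across the genome, 143514 shared footprints had a median width of 20 bp and 4.40% were 45 bp or wider. Widths are those of the overlapping footprints of both replicates joined. Among the peaks with the wider footprints, the unique share of words was 62.3% at Pcdhgb6 and 80.3% at Pcdhgb7. It was 100% at Pcdhga11 and Pcdhgb8. Among those with the narrower ones it was 96% at Pcdhgb5 and 100% at Pcdhgb4 and Pcdhb3. Whether read placement bears on the widths was not tested.

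**Figure D5:**
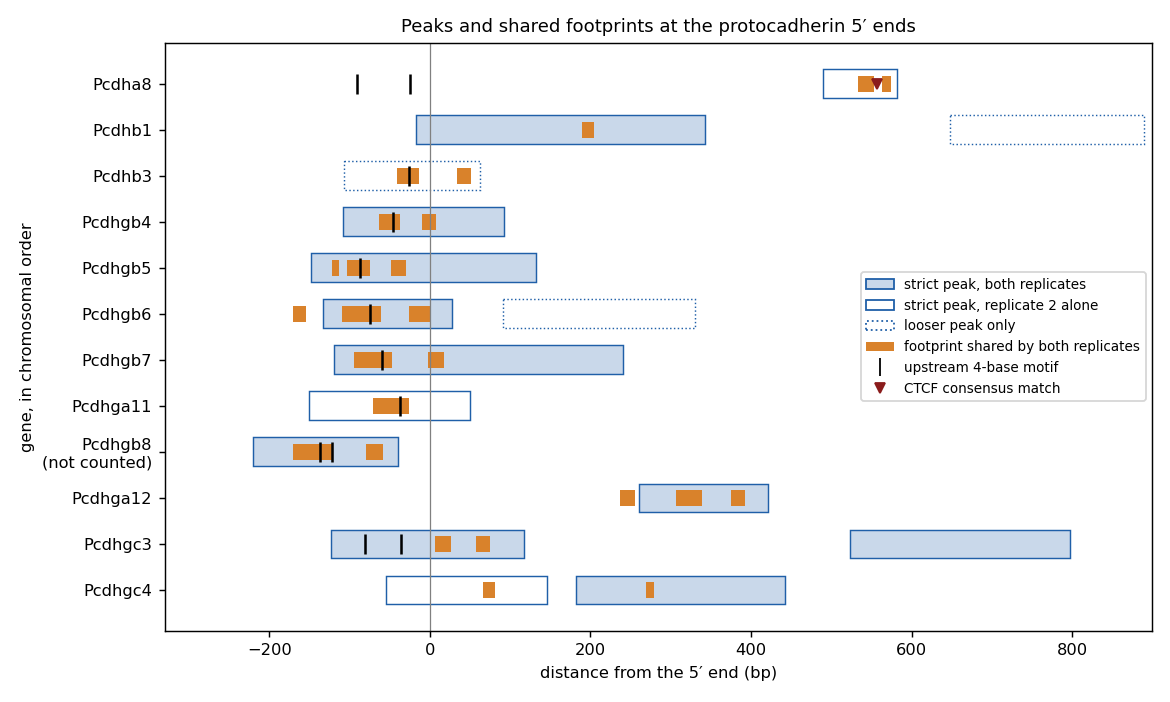
Peaks (boxes), footprints shared by both replicates (orange), upstream CGCT matches (black ticks) and the CTCF consensus match of Pcdha8 (triangle) by distance from the 5′ end (horizontal axis, bp), for the 11 genes with a shared footprint and Pcdhgb8. Footprints cover the tick at Pcdhb3, Pcdhgb4 to Pcdhgb7 and Pcdhga11 and the first tick at Pcdhgb8, and lie downstream of the 5′ end at Pcdha8, Pcdhb1, Pcdhga12, Pcdhgc3 and Pcdhgc4.

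The consensus of CTCF (12 letters, on either strand, no mismatch) was searched from 500 bp before to 1000 bp after each 5′ end. It was found at 6 protocadherin genes, or 6 of 57, against 1.32% of all protein-coding genes. All 6 were alpha genes, Pcdha1, Pcdha4, Pcdha6, Pcdha7, Pcdha8 and Pcdha12, and the match lay on the sense strand in the first exon of each, 537 to 581 bp after the 5′ end. None of the 6 matches lay in a strict peak of both replicates, against 63.5% of the 296 matches at all protein-coding genes. The Pcdha8 match lay in a looser peak of both replicates and touched 2 shared footprints, 20 bp and 11 bp wide. Within 150 bp around it, 27.5% of 31-base words were unique, and the value was the same at Pcdha7. The assignment of this signal to Pcdha8 is therefore uncertain. At Pcdha1, Pcdha4, Pcdha6 and Pcdha12 all words were unique. No peak of either list covered the match at these genes or at Pcdha7. The beta and gamma genes held no match in this window, which says only that these letters are not in it. With 1 mismatch allowed, Pcdhb8, Pcdhgb1 and Pcdhgb7 held one. Binding of CTCF was not measured, neither at these letters nor at CGCT.

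The constant exons of the alpha and gamma clusters were compared next. No alpha constant exon overlapped a peak of either list. In the gamma cluster, 2 of 3 constant exons overlapped a strict peak in both replicates, so 2 of 6 in all did. The share was 1.65% among 201681 protein-coding exons away from transcript starts. These were not matched in length to the constant exons, and the 2 gamma exons with a peak were 59 bp and 1971 bp long. The peak over the first gamma constant exon (37825021 to 37825079) scored 0.733 and 1.14 (0.935 ± 0.285, SD, n = 2), replicate 2 being higher. The peak over the third, which carries the end of the coding sequence and the 3′ end of the transcripts (37839903 to 37841873), scored 1.32 and 1.34 (1.33 ± 0.0131, SD, n = 2). Of its words, 81.2% were unique. The second gamma constant exon had none. A further peak between the second and the third exon, at 37835590 to 37835869, scored 0.852 and 0.754 and held 3 shared footprints.

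Between the alpha and beta clusters lay 1 shared strict peak, at 37218241 to 37218460, with scores of 1.07 and 1.09 (1.08 ± 0.00977, SD, n = 2). It lay 46.6 kb before the 5′ end of Pcdhb1 and held a shared footprint of 42 bp. Enhancers downstream of the alpha constant exons are known from the brain, and their positions were not matched here. It was the first shared strict peak of the whole region: the 388 kb before it, with the 5′ flank and all alpha genes, held none.

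In all, the region with its flanks held 24 shared strict peaks, of 26 strict peaks in replicate 1 and 30 in replicate 2. Of these, 9 lay at variable promoters, 2 at constant exons, 5 at starts of other genes, 2 elsewhere inside the clusters and 6 elsewhere in the flanks. The density was 66.6 shared peaks per Mb in the gamma cluster, 3.85 in the beta cluster and 0 in the alpha cluster, and 19.0 in the genome. The 8 strict sites of 1 replicate had scores of 0.529 to 1.39 with a median of 0.608, and 4 of them were in the looser lists of both replicates. Strict peaks of the region reached a lowest FDR of at most 0.000272 in replicate 1 and 0.000535 in replicate 2.

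All 9 shared peaks of the flanks were on the gamma side, within or at the start of Diaph1, the neighbouring gene for a formin that assembles actin. The Diaph1 promoter scored 14.0 and 10.7 and that of Taf7, a subunit of the general transcription factor TFIID that lies between the beta and gamma clusters, 9.65 and 6.64. Both neighbours stood above every protocadherin promoter in each replicate. Away from transcript starts, the introns of Diaph1 held 6 shared peaks, of which those at 37883561 to 37883720 (7.16 and 6.62), 37852221 to 37852400 (4.69 and 4.61) and 37925961 to 37926160 (2.70 and 2.80) were highest. The 2 highest of these exceeded Pcdhgc3 in both replicates. The peak at 37852221 lay 10.3 kb beyond the end of the gamma cluster. No shared strict peak of the region held a complete CTCF consensus match, and a shared footprint at 37883719 to 37883754, on the edge of the strongest intronic peak, overlapped one. In the same gene, a strict peak of replicate 1 alone, at 37887105 to 37887226, held a complete match that overlapped a shared footprint. That peak scored 0.585 in replicate 1 and 0.553 in the looser list of replicate 2.

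Related genes were described for comparison, beside the 54.3% of all protein-coding genes that had a promoter peak in both replicates. Of 12 protocadherins outside the clusters, 5 had a promoter peak in both replicates, Pcdh1 (1.88 ± 0.158, SD, n = 2), Pcdh8 (1.37 ± 0.224), Pcdh17 (0.929 ± 0.111), Pcdh7 (0.866 ± 0.253) and Pcdh19 (0.657 ± 0.233). Their mean scores lay within the range of the mean scores of the accessible clustered genes. In replicate 2 alone, Pcdh19 at 0.492 lay below the lowest clustered score, 0.547. The CpG number over all 12 had a median of 49, against 30 for the clustered genes. Of 22 genes for factors known to act on the clusters, 19 had a promoter peak in both replicates. Most of the 22 had 50 or more CpG near the 5′ end, a class in which 88.3% of all protein-coding genes were accessible. Ctcf scored 13.5 and 9.24, Rad21, a cohesin subunit, 10.2 and 7.66, and Smchd1, a structural protein known to repress genes of the clusters, 9.96 and 5.83. Setdb1, a histone H3 lysine methyltransferase, scored 9.71 and 9.84, and Dnmt3b, a DNA methyltransferase that methylates variable promoters, 1.51 and 1.12. Dnmt1, Stag1 and Trim28 had no peak at the 5′ end of the gene, but each had one at another annotated start in both replicates. This made 22 of 22, against 59.0% of all protein-coding genes with any annotated start.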

How the data were processed

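DNase I-seq of whole thymus was deposited for 2 samples of 1 group, on mm10 per the labels. The deposited peak lists hold a signal score per peak, in a strict and a looser list per sample; the deposited FDR tracks hold q-values, p-values adjusted for the number of tests, for stretches under 0.05; and the deposited footprints carry a constant in place of a value. The sources used here name no aligner, peak caller or scale factor, and each file holds 1 sample.

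Overlapping entries of a list were joined, keeping the highest score, and peaks or footprints overlapping by at least 1 bp were called shared. Genes came from GENCODE M21 and sequence from GRCm38.p6. Unique words are 31-base words found once on either strand of the autosomes, X and Y. The members, lists and rules were chosen with earlier results of these data known, so counts are descriptions beside the share of all genes, and no test was made. Genes named were those with a strict peak, C-type genes, the ends of each cluster, and in the lists fixed subsets. Others named (Pcdhb2, Pcdhb3, Pcdhb10, Pcdhga3, Pcdhga8 to Pcdhga10, Pcdhgb1, Pcdhgb2, the genes with a CTCF match and the single marker genes) were chosen after their values were seen. Alternatives changed the list, the window, the start, the overlap, the flank, the motif search and the replicates. Steps were tested on simulated data. Python 3.11.15, numpy 2.4.6 and pandas 2.3.3 were used.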

Additional observations from a re-analysis of the deposited data

How the results depend on the processing

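The count of 8 accessible variable promoters stayed between 7 and 12 under every alternative run. The 50000 highest peaks gave 7 (without Pcdhb1), windows of 500 and 2500 bp and any annotated start gave 8, and the looser list gave 12, adding Pcdha8, Pcdhac1, Pcdhb3 and Pcdhga11; single replicates gave 8 and 11. The share of all genes, 54.3%, was 57.9% with the looser list, 51.5% with the 50000 highest peaks, 52.2% and 57.6% with windows of 500 and 2500 bp, 59.0% with any annotated start, 49.4% in the CpG range, and 55.5 to 55.9% in single replicates. Constant exons stayed at 2. Shared peaks of the region ranged from 19 (flanks of 50 kb) to 33 (looser list), and those at variable promoters rose from 9 to 14 with the looser list. The 62 shared footprints became 53 with 50% reciprocal overlap and 105 to 134 in single replicates. CTCF matches rose from 6 genes to 17 with a window from 1000 bp before to 2500 bp after the 5′ end (2.77% of all genes). With 1 mismatch they rose to 13 (16.1% of all genes), among them 9 alpha genes with a sense-strand match 456 to 581 bp after the 5′ end. The others were Pcdhac1, Pcdhb8, Pcdhgb1 and Pcdhgb7, so that the matches were no longer in alpha genes alone. Any annotated start, added after seeing the data, changed the regulators from 19 to 22. No value reversed. Depth is not stated, the replicates number 2, and the 8 strict sites not shared by the replicates scored 0.529 to 1.39 (median 0.608). No paired analysis was possible because there is 1 group.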
